A study of Helianthus annuus with 9 samples.

Results

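Among the long non-coding RNA (lncRNA) of developing sunflower seeds, 62 assembled loci were abundant in every library of day 22 and day 37 and low on day 7. They were selected on their measured levels in the deposited lncRNA table, as the loci with an LXLOC name that had at least 50 FPKM in each of the 6 libraries of day 22 and day 37 and below 5 FPKM in each of the 3 libraries of day 7. FPKM relates the fragments of a feature to its length in kilobases and to the library's total. The table held 65535 features, of which 57962 carried an LXLOC name, so the 62 late loci are a small group within it. An LXLOC name marks a locus built from the reads, which can still overlap an annotated gene, and no function is attached to any of the 62 in the files.

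The seeds came from the sunflower (Helianthus annuus) line L-1-OL-1, whose oil is high in oleic acid, and the plants stood in a field and received no treatment. All groups share this line and differ only in the day of collection, which was day 7, day 22 or day 37, with 3 libraries a day and 9 in all. The labels state neither what the days were counted from nor whether separate plants gave the libraries of 1 day, and p-values here cover only the spread between these libraries. No table used here pairs gene IDs with product names, so the seed label was not checked against marker genes, and in a whole seed fewer cells of a type and less RNA per cell cannot be told apart.

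A lncRNA is a transcript longer than the short regulatory RNA classes that has no evident protein-coding frame. Some plant lncRNA act on neighbouring genes, such as the antisense transcripts of the flowering repressor FLC in Arabidopsis, and others serve as precursors or decoys of small RNA, but most have no known role. Seeds pass from cell division through storage of oil and protein to drying, and their RNA content is known to be remodelled along this course.

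The lowest FPKM values of short single-exon intergenic loci fell on multiples of 1 fragment in each library, with 85.4% to 95.4% of values up to 6 fragments lying within 0.15 of a whole number. The size of that step gave scaling totals of about 51500000 to 53100000 on day 7, 26200000 to 34900000 on day 22 and 22300000 to 25700000 fragments on day 37. The number of lncRNA features at 1 FPKM or more lay between 3187 and 3260 on day 7. It was 17642, 26376 and 38256 in replicates 1 to 3 of day 22 and 31273, 34167 and 46878 in those of day 37. The late libraries thus stood apart from one another as well as from day 7, with the highest number on each late day in replicate 3. The late loci moved with this number. The FPKM sum of the mRNA table was 542177, 549131 and 545701 on day 7. It was 331317, 286013 and 228550 on day 22 and 277263, 239159 and 149870 on day 37, lowest in replicate 3 of each late day. FPKM is relative to the library's total, so the levels given here are not amounts per seed. The part of this shift between the tables in the late levels was not tested.

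The most abundant late locus was LXLOC_216026. It had 0.03, 0.07 and 0.38 FPKM in the 3 libraries of day 7, then 847, 1173 and 1620 FPKM on day 22, and 1384, 1664 and 2269 FPKM on day 37. Every late library stood far above every day 7 library, and within each late day the level was lowest in replicate 1 and highest in replicate 3. LXLOC_137664 had 0.12, 0.06 and 0.21 FPKM on day 7, 802, 985 and 1421 FPKM on day 22, and 1287, 1296 and 1843 FPKM on day 37. LXLOC_215785 had 0.31, 0.37 and 0.50 FPKM on day 7, 644, 840 and 1280 FPKM on day 22, and 1114, 1290 and 1814 FPKM on day 37. In all 3 loci the day 22 and day 37 values overlapped, because replicate 3 of day 22 was above replicate 1 of day 37.

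LXLOC_215758 differed from the other leaders in its day 7 level, which was 3.94, 4.76 and 3.19 FPKM and so close to the ceiling of the rule. Its late values were 653, 891 and 1434 FPKM on day 22 and 1140, 1340 and 1711 FPKM on day 37. LXLOC_215589 was listed at 0, 0.06 and 0.16 FPKM on day 7. Its day 22 values were 564, 607 and 1100 FPKM, and its day 37 values were 659, 971 and 1303 FPKM. The same order of replicates held in both loci, and again the late days overlapped. These 5 loci together made up 34.4% of the summed FPKM of the 62 on day 22 and 34.4% on day 37.

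**Figure D1:**
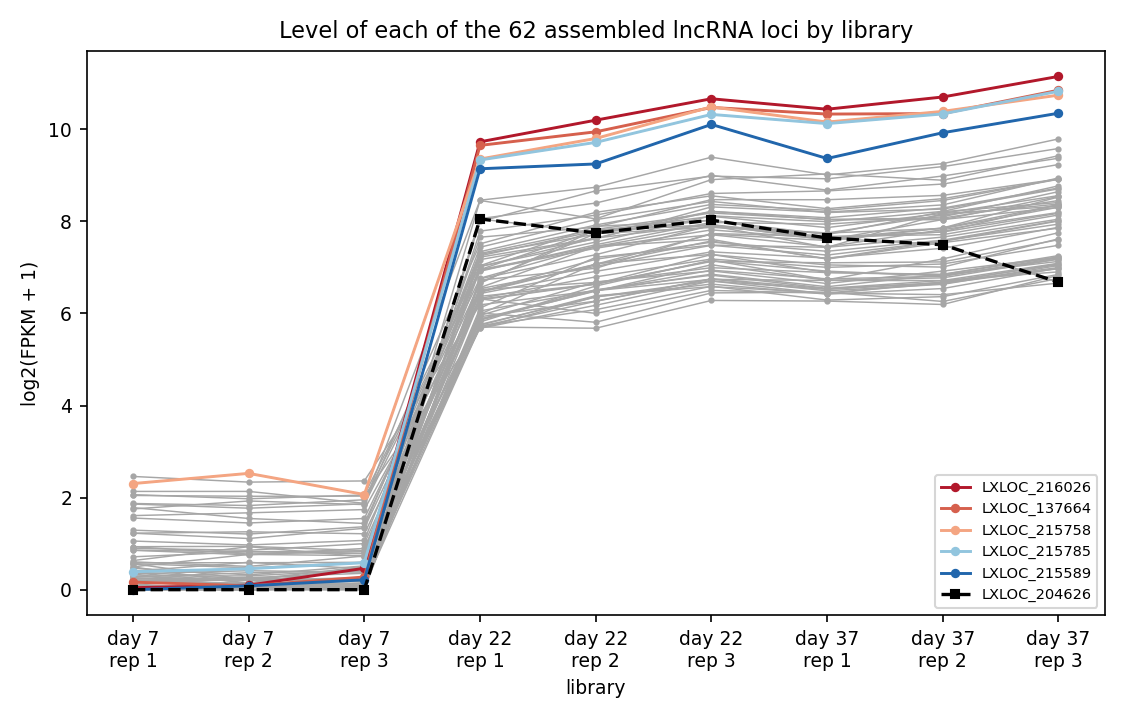
Level of the 62 late loci as log2(FPKM + 1) in each of the 9 libraries, 1 line per locus, with the 5 most abundant loci in colour and LXLOC_204626 dashed in black. All loci lie below 5 FPKM on day 7 and at 50 FPKM or more in the 6 late libraries, as the rule requires, and within each late day most lines are highest in replicate 3, while that of LXLOC_204626 is lowest there on day 37.

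The late means of the 62 loci ran from 73.2 FPKM for LXLOC_061308 to 1493 FPKM for LXLOC_216026, with a median of 197 FPKM. Of the 62, 12 had a late mean under 100 FPKM, 20 lay between 100 and 200 FPKM, 24 between 200 and 500 FPKM and 6 at 500 FPKM or more. On day 7 the mean was at least 1 FPKM in 15 loci, between 0.1 and 1 FPKM in 33 and below 0.1 FPKM in 14. Between the day 7 mean and the late mean, Spearman's rho over the 62 loci was -0.08, a description over loci that share the same 9 libraries. The rule limited both levels, so no relation or lack of one is read from this value. LXLOC_066524 had the highest day 7 mean, with 4.50, 4.05 and 4.14 FPKM in its libraries.

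On the log2(FPKM + 1) scale, the difference between day 22 and day 7 ran from 4.09 to 9.99 with a median of 6.39, and that between day 37 and day 7 from 4.39 to 10.56 with a median of 6.84. These differences describe what the rule selected and were not tested. Of the 186 day 7 values, 18 were listed at 0. LXLOC_204626 was listed at 0 in all 3 day 7 libraries, 4 loci in 2 of them and 7 in 1 of them, and the other 50 loci had a value above 0 in each.

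Summed over the 62 loci, the day 7 level was 49.7 ± 0.919 FPKM (SD, n = 3). It reached 14414.5 ± 4657 FPKM by day 22 and 20409 ± 4666 FPKM by day 37. The sums on day 22 were 10140, 13726 and 19377 FPKM, and those on day 37 were 16581, 19040 and 25606 FPKM. The late days overlapped, and within each the sum was lowest in replicate 1 and highest in replicate 3. As a share of the FPKM sum of the whole lncRNA table, the 62 loci held 0.0346% ± 0.000882 (SD, n = 3) on day 7, which became 6.89% ± 2.66 by day 22 and 10.1% ± 2.29 by day 37. The share was 4.28%, 6.77% and 9.61% in the libraries of day 22 and 8.02%, 9.86% and 12.6% in those of day 37.

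The values just inside and just outside the thresholds formed a continuous range on the late side. The lowest late value was 50.2 FPKM in LXLOC_023189, LXLOC_061308 and LXLOC_003006, 51.6 FPKM in LXLOC_083235 and 52.0 FPKM in LXLOC_108205. Just outside, it was 49.8 FPKM in LXLOC_179880, 48.9 FPKM in LXLOC_039172, 48.8 FPKM in LXLOC_189412, 48.3 FPKM in LXLOC_170599 and 47.1 FPKM in LXLOC_057989. On the day 7 side, the highest values inside the ceiling were 4.76 FPKM in LXLOC_215758, 4.50 FPKM in LXLOC_066524, 3.39 FPKM in LXLOC_014666, 3.18 FPKM in LXLOC_181293 and 3.13 FPKM in LXLOC_003006. The nearest loci above it had 7.12 FPKM (LXLOC_190053), 8.51 FPKM (LXLOC_199780), 13.6 FPKM (LXLOC_072109), 17.5 FPKM (LXLOC_145782) and 18.4 FPKM (LXLOC_213369). In all, 85 LXLOC loci had at least 50 FPKM in every late library, and 23 of them reached 5 FPKM or more on day 7.

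None of the 7573 lncRNA features that carry an annotated gene ID met the same thresholds. The nearest was LOC110939334, whose lowest late value was 16.7 FPKM, followed by LOC110934310 with 9.92 FPKM and LOC110941137 with 8.35 FPKM. In the mRNA table, 66 features met the thresholds, 30 of them assembled loci (MXLOC names) and 36 annotated genes.

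Within the 6 late libraries, nearly all of the 62 loci followed 1 order. Replicate 1 of day 22 was the lowest library in 57 of the 62, and replicate 3 of day 37 was the highest in 60. Replicate 3 was above replicate 1 on both late days in 61 of the 62 loci, with a median ratio of 1.95 on day 22 and 1.49 on day 37. The rest of the LXLOC loci shared this order to a lesser extent in number but to the same extent in size. Among the 55040 other LXLOC loci with a value above 0 in every late library, replicate 3 was above replicate 1 on both days in 79.6%, with median ratios of 1.95 and 1.55. The LXLOC loci outside the 62 were far less abundant, with late library medians of 0.62 to 1.53 FPKM. The part of their low levels in the smaller share was not tested.

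The median FPKM of the 62 loci was 101, 162 and 211 in the libraries of day 22 and 182, 213 and 284 in those of day 37. The median of the other LXLOC loci was 0.62, 0.89 and 1.21 FPKM on day 22 and 1.02, 1.10 and 1.53 FPKM on day 37, in the same order of replicates. The ratio of the 2 medians was 162, 182 and 174 on day 22 and 179, 193 and 186 on day 37, a narrow range beside that of the levels. The part of a library-wide shift in the order of the late loci was not tested.

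The scaling total of a library ran the other way, since it was largest in replicate 1 and smallest in replicate 3 on both late days. The median FPKM of the late loci times the scaling total, which is a number of fragments per kilobase, was 3505, 4680 and 5534 on day 22 and 4695, 5329 and 6330 on day 37. This median kept the order of the replicates. By the same product, replicate 3 gave more fragments than replicate 1 on both late days in 59 of the 62 loci.

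**Figure D2:**
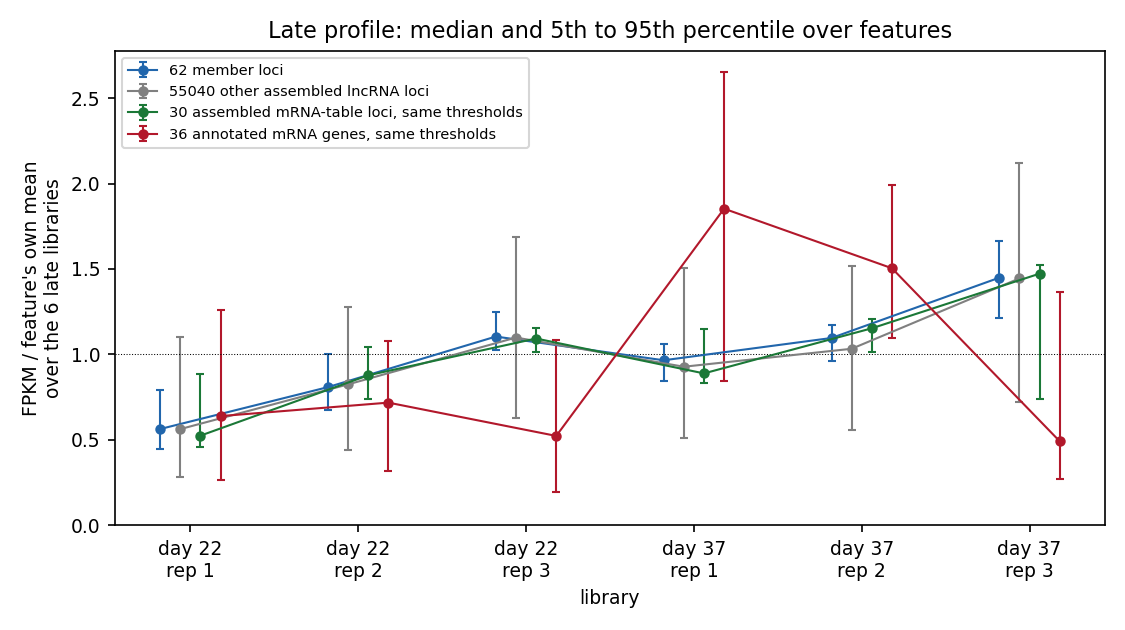
FPKM in each late library relative to the feature's own mean over the 6 late libraries, for the 62 late loci, the other LXLOC loci, and the 30 assembled and 36 annotated mRNA features that met the same thresholds. Points are medians over features and bars run from the lowest to the highest twentieth of features. The late loci and other LXLOC loci run together, at 0.564 and 0.563 in replicate 1 of day 22 and both at 1.45 in replicate 3 of day 37, whereas the annotated genes reach 1.85 in replicate 1 of day 37 and 0.492 in replicate 3.

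The mRNA features with the same thresholds fell into 2 kinds by this measure. Of the 30 assembled MXLOC loci, 28 had more FPKM in replicate 3 than in replicate 1 of each late day, with median ratios of 2.12 and 1.65. Of the 36 annotated genes, 6 were, and 25 were lower on both days, with median ratios of 0.690 and 0.224. The assembled locus MXLOC_161222 had 372, 652 and 832 FPKM on day 22 and 661, 865 and 1102 FPKM on day 37, and MXLOC_179773 had 336, 627 and 783 FPKM and then 623, 840 and 1074 FPKM. Both were lowest in replicate 1 and highest in replicate 3 of each late day, as were most late loci.

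The annotated gene LOC110885558 had 337, 530 and 475 FPKM on day 22 and 3150, 2990 and 1745 FPKM on day 37. LOC110895162 had 459, 307 and 182 FPKM on day 22 and 1781, 1345 and 326 FPKM on day 37. LOC110935334 had 177, 146 and 78.5 FPKM on day 22 and 1762, 1366 and 311 FPKM on day 37. Apart from day 22 of LOC110885558, these 3 genes were lowest in replicate 3 of each late day, opposite to the late loci.

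The coefficient of variation of a late locus over the 6 late libraries had a median of 30.7% and ran from 14.7% in LXLOC_090065 to 43.1% in LXLOC_055830. After each value was divided by the median of the other LXLOC loci in its library, the median coefficient was 7.35%, and it was lower than before in 59 of the 62 loci. The lowest was 2.51% in LXLOC_083235, and the highest was 54.7% in LXLOC_204626. After division the highest library was under 1.5 times the lowest in 51 loci and under 2 times in 61. The loci with the widest ratios were LXLOC_204626 with 6.44, LXLOC_090065 with 1.94, LXLOC_160922 with 1.90, and LXLOC_216147 and LXLOC_164558 with 1.66 each.

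**Figure D3:**
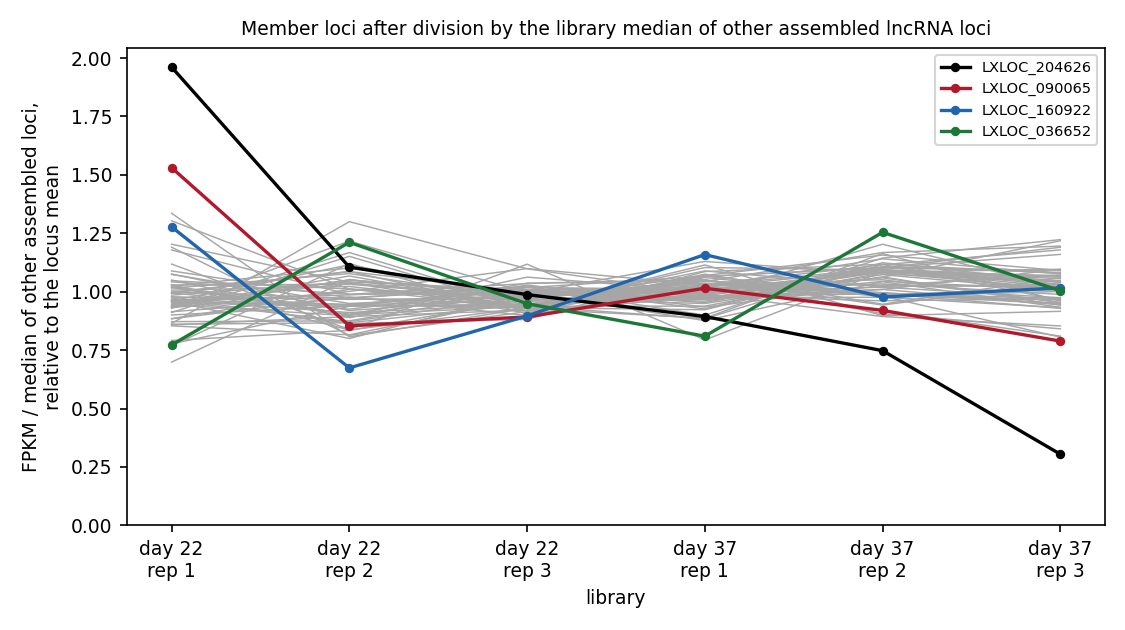
Level of each late locus in the 6 late libraries divided by the median of the other LXLOC loci in that library, relative to the locus's own mean of these ratios, 1 line per locus, with 4 of the more variable loci in black or colour. Most of the 62 lines lie close to 1, and LXLOC_204626 departs from them, with a ratio to the LXLOC median that runs from 427 in replicate 1 of day 22 to 66.3 in replicate 3 of day 37.

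LXLOC_204626 was the locus whose late course differed most from the rest. Listed at 0 on day 7, it had 265, 214 and 260 FPKM on day 22 and 198, 179 and 101 FPKM on day 37. Every day 22 library was above every day 37 library, and replicate 3 of day 37, the highest library of nearly all other late loci, was its lowest. The share of all features with day 22 wholly above day 37 is not given here, so nothing is read from that separation. The log2 difference of LXLOC_204626 between day 37 and day 22 was -0.67 ± 0.34 (SE, limma adjusted p 0.220) and did not pass the test.

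In 4 further loci the lowest late library was replicate 2 of day 22 in place of replicate 1, namely LXLOC_160922, LXLOC_090065, LXLOC_164558 and LXLOC_061308. The ratio of replicate 2 to replicate 1 was more variable between loci than that of the medians. On day 22 it had a median of 1.42 and ran from 0.757 in LXLOC_160922 to 2.25 in LXLOC_036652, and it was above 1 in 57 loci. On day 37 it had a median of 1.12 and ran from 0.868 in LXLOC_164558 to 1.67 in LXLOC_036652, and it was above 1 in 51 loci. LXLOC_036652 thus had the widest gap between these replicates on both days.

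The step from day 22 to day 37 was not used to choose the loci and was tested with limma over all 34147 lncRNA features that had at least 1 FPKM in at least 3 libraries, a filter that all 62 late loci passed. A call needed a log2 difference of at least 1 in size and a p under 0.05 after Benjamini-Hochberg adjustment. None of the 62 late loci was called in either direction, against 2.38% of all features tested, of which 0.515% had risen and 1.87% had fallen. Rises made up 21.6% of all calls as deposited and 10.6% after scaling on the 453 mRNA genes at 10 FPKM or more in all libraries. None had an adjusted p under 0.05 at any size of difference, against 4.67% of all features. At an unadjusted p under 0.05 there were 6 of the 62, against 23.4% of all features.

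The fitted difference between day 37 and day 22 was above 0 in 61 of the 62 loci, with a median of 0.50, beside a median of 0.27 over all features tested, of which 86.8% were above 0. With a pseudocount of 0.1 the 2 medians were 0.50 and 0.43, so most of the gap between them depended on the pseudocount of 1. The level was higher in every day 37 library than in every day 22 library in 1 late locus, LXLOC_167598, against 12.5% of all features. Within same-numbered libraries, day 37 was above day 22 in all 3 pairs in 60 of the 62 loci, against 58.3% of all features, most of which were far less abundant. With the replicate number as a block, none of the 62 was called, 2 had an adjusted p under 0.05, against 15.0% of all features, and 21 had an unadjusted p under 0.05, against 36.5%. The 95% interval of the difference, in the fit without the block, reached below 0 in 56 of the 62 loci. It reached 1 or more in 56, so that fit resolves neither a rise of that size nor its absence for most loci. Intervals of the blocked fit are not given here. With trimmed mean scaling of the libraries the median difference was 0.02, beside -0.06 over all features, and 24 of the 62 loci lay below 0. The median of the 62 was 0.30 with median-of-ratios scaling, 0.34 with quantile normalization, 0.27 without replicate 1 of day 22 and 0.32 without replicate 3 of day 37, beside 0.12, 0.04, 0.14 and 0.17 over all features tested.

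The 5 largest differences were in LXLOC_077539, LXLOC_215592, LXLOC_216147, LXLOC_209861 and LXLOC_081441. LXLOC_077539 had 144 ± 61.7 FPKM on day 22 and 250 ± 70.6 FPKM on day 37 (SD, n = 3), a difference of 0.84 ± 0.35 (SE) with a limma adjusted p of 0.164, the lowest of the 62. LXLOC_215592 had 219 ± 89.5 and then 370 ± 106 FPKM (0.80 ± 0.36, adjusted p 0.188). The differences of LXLOC_216147, LXLOC_209861 and LXLOC_081441 were 0.77, 0.77 and 0.76, with limma adjusted p-values of 0.191, 0.208 and 0.202. None passed the test.

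Without replicate 3 of day 22, which was the highest library of that day for most late loci, 6 of the 62 were called as risen, against 1.30% of all features. They were LXLOC_077539, LXLOC_215592, LXLOC_216147, LXLOC_081441, LXLOC_209861 and LXLOC_055830, with differences of 1.16, 1.11, 1.05, 1.04, 1.02 and 1.02. In that fit 12 of the 62 had an adjusted p under 0.05 at any size, against 36.0% of all features. Without replicate 3 of both late days none was called and 13 had an adjusted p under 0.05, against 18.8% of all features.

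Apart from LXLOC_204626, the smallest differences were 0.22 ± 0.34 (SE) in LXLOC_000304, 0.22 ± 0.32 in LXLOC_038342, 0.23 ± 0.32 in LXLOC_090065 and 0.25 ± 0.32 in LXLOC_065923, none of which passed the limma test. LXLOC_090065 had 77.1 ± 13.3 FPKM on day 22 and 89.9 ± 8.81 FPKM on day 37 (SD, n = 3), and LXLOC_038342 had 106 ± 18.4 and 123 ± 13.8 FPKM. For the most abundant locus, LXLOC_216026, the difference was 0.57 ± 0.41 with an adjusted p of 0.335.

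**Figure D4:**
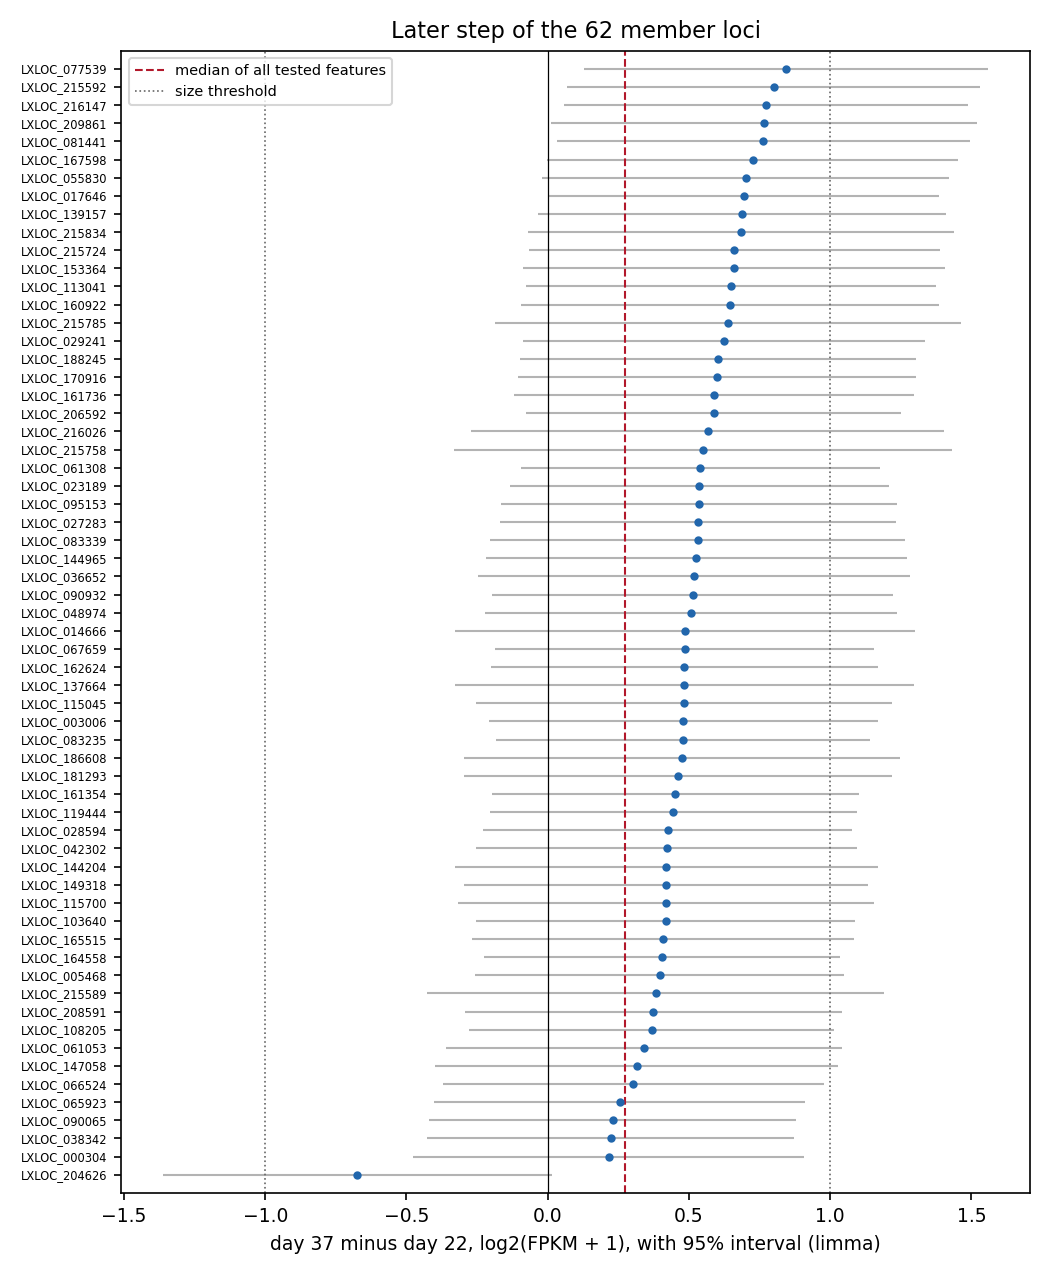
Difference between day 37 and day 22 on the log2(FPKM + 1) scale for each of the 62 late loci in order of size, as points with 95% limma intervals, with a dashed line at the median of all features tested (0.27) and dotted lines at a difference of 1 in either direction. All points but that of LXLOC_204626 lie above 0 as deposited (24 lie below 0 with trimmed mean scaling), and 56 of the 62 intervals reach below 0. The intervals are those of the fit without the replicate block. With a pseudocount of 0.1 the median of all features was 0.43 and that of the 62 loci 0.50.

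The names of the loci carry a number that follows the order of the sequences in the assembly file, and the late loci were unevenly spread over these numbers. Loci numbered 215000 or above, a bound chosen after the names were seen, made up 8 of the 62 late loci and 260 of the 57962 LXLOC loci. They included 4 of the 5 most abundant late loci, LXLOC_216026, LXLOC_215758, LXLOC_215785 and LXLOC_215589. The median late mean of the 8 was 683 FPKM, and that of the other 54 was 171 FPKM. The highest number of any LXLOC locus, LXLOC_216147, was that of a late locus. The assembly file used here ends at number 57346, so the positions of these 8 loci were not analysed.

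For 14 of the 62 late loci the assembly file gave the exons, each as 1 transcript, and the other 48 were not covered by it. The labels and files used here name no genome build, so positions are those of the file, with its names of the sequences. The 14 loci lay on all 5 sequences that hold the file's loci in number, with 3 loci on each of 4 sequences and 2 on the other. By the class codes of the assembly, 6 were intergenic, 5 overlapped an exon of an annotated gene on the opposite strand, 2 overlapped an annotated exon in another way and 1 shared a splice junction with an annotated gene. Among the 15411 other LXLOC loci of the file, 87.2% were intergenic and 10.5% overlapped an exon on the opposite strand.

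Single-exon transcripts made up 10 of the 14 late loci and 95.3% of the other LXLOC loci. The exonic length had a median of 1568 bases, from 313 to 4660, beside a median of 870 bases in the other LXLOC loci. No circular RNA in the deposited list overlapped any of the 14. The deposited FPKM and the scaling totals correspond to between 0 and 664 fragments per library on day 7 and between 416 and 39880 fragments in the late libraries, so the late levels do not rest on few fragments. The labels' protocols do not say whether strand was kept, and reads of a locus and of a transcript on the opposite strand cannot then be told apart. Assembled exons on the opposite strand overlapped 4 of the 14 loci, namely LXLOC_029241, LXLOC_017646, LXLOC_042302 and LXLOC_003006.

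Among the spliced late loci, LXLOC_029241 (NC_035435.1:1310828-1322059, minus strand) was intergenic, with exons of 1663 and 2693 bases. Its means on the 3 days were 0.0333 ± 0.0289, 220 ± 71.4 and 334 ± 78.9 FPKM (SD, n = 3). These values correspond to at most 11.2 fragments in a day 7 library and at least 23055 in a late one.

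LXLOC_003006 (NC_035433.1:89856879-89863528, plus strand) had 6 exons and shared a junction with LOC110871722, which the gene table lists as a lncRNA gene. Its day 7 level of 3.10 ± 0.0265 FPKM (SD, n = 3) corresponds to 633 to 664 fragments per library, so it was low but well measured on day 7. It reached 78.2 ± 26.6 FPKM on day 22 and 106 ± 18.6 FPKM on day 37.

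The spliced loci LXLOC_014666 and LXLOC_055830 had short exons far apart. LXLOC_014666 (NC_035434.1:108146200-108215302, plus strand) joined exons of 292 and 45 bases over a span of 69103 bases. It had 483 ± 167 FPKM on day 22 and 669 ± 192 FPKM on day 37 (SD, n = 3), and the annotated lncRNA gene it overlapped, LOC110919578, lay between 0.23 and 1.31 FPKM in the same libraries. LXLOC_055830 (NC_035437.1:7975527-8024390, minus strand) joined exons of 178 and 135 bases over 48864 bases and had 97.5 ± 43.2 and then 155 ± 55.4 FPKM.

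The 5 loci that lay opposite an annotated exon were single-exon transcripts. LXLOC_036652 (NC_035436.1:39482393-39486061, plus strand) was antisense to the protein-coding gene LOC110933183. It had 188 ± 76.6 FPKM on day 22 and 260 ± 77.7 FPKM on day 37 (SD, n = 3), whereas the gene was listed at 0 on day 7 and between 0.27 and 0.91 FPKM in the late libraries. LXLOC_048974 (NC_035437.1:32170349-32175008, plus strand), the longest with 4660 bases, was antisense to the protein-coding gene LOC110942725. It had 164 ± 51.3 and then 230 ± 59.1 FPKM, and that gene was listed at 0 on day 7 and between 0.42 and 1.04 FPKM in the late libraries.

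LXLOC_005468 (NC_035433.1:144127502-144129218, plus strand) had 77.6 ± 22.9 FPKM on day 22 and 101 ± 21.9 FPKM on day 37 (SD, n = 3) and was antisense to the gene with ID 110933078 (ID110933078). The gene stood at 0.01, 0 and 0 FPKM on day 7, 0.76, 1.14 and 1.70 FPKM on day 22 and 1.2, 1.2 and 1.5 FPKM on day 37. All late libraries were above day 7. The fitted difference between day 22 and day 7, given as a description, was 1.11 on the log2(FPKM + 1) scale, 3.59 with a pseudocount of 0.1, 0.95 without replicate 3 of day 22 and 0.27 with quantile normalization. LXLOC_027283 (NC_035435.1:123242530-123243377, plus strand) and LXLOC_038342 (NC_035436.1:94295109-94296404, plus strand) lay opposite the annotated lncRNA genes LOC110928062 and LOC110934765, for which no values were analysed here. LXLOC_027283 had 178 ± 57.9 and then 253 ± 55.1 FPKM. In all 3 antisense pairs with values, the late locus, which the rule chose as high, was far above the gene on its other strand.

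The single-exon intergenic loci were LXLOC_017646 (NC_035434.1:2599217-2600787, minus strand), LXLOC_000304 (NC_035433.1:7487761-7489325, plus strand), LXLOC_028594 (NC_035435.1:155946315-155948250, plus strand), LXLOC_042302 (NC_035436.1:20403482-20404872, minus strand) and LXLOC_023189 (NC_035434.1:176788528-176788850, minus strand). LXLOC_017646 went from at most 3.1 fragments in a day 7 library to at least 5292 in a late one, with 147 ± 57.0 FPKM on day 22 and 231 ± 43.4 FPKM on day 37 (SD, n = 3). LXLOC_000304 had 117 ± 48.5 and then 128 ± 20.8 FPKM, and LXLOC_028594 had 92.1 ± 28.3 and 121 ± 22.0 FPKM. LXLOC_023189, the shortest of the 5 with 323 bases, had 75.0 ± 26.8 and 106 ± 24.1 FPKM.

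Among the mRNA-table features, 8 overlapped or lay within 10000 bases of 7 late loci, and 6 of these passed the filter and were tested. LOC110871737 was the only one of the 6 at 1 FPKM or more on day 7. The other 5 were below 1 FPKM in every day 7 library and entered the test through their late values, so a rise from day 7 was built into their selection. The calls against day 7 are therefore given as counts only, with nothing read from them. Between day 7 and day 22, 4 of the 6 passed as higher and none as lower, where 34.1% of all 36401 mRNA features tested had risen and 24.9% had fallen. Between day 7 and day 37, 4 passed as higher and 1 as lower, where 39.4% and 38.8% had risen and fallen.

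These counts moved with the scaling. For day 37 against day 7, 5 passed as higher with a pseudocount of 0.1, 6 with median-of-ratios scaling, 5 with scaling on the 453 mRNA genes and 3 with quantile normalization, and under these 4 settings none passed as lower. For day 22 against day 7, 2 passed as higher with quantile normalization. Between day 22 and day 37, none of the 6 was called, against 17.5% of all features, of which 0.843% had risen and 16.6% had fallen. At an unadjusted limma p under 0.05 there was 1 of the 6, MXLOC_003007 (p 0.0494, adjusted p 0.120). The share of all features at that level is not given here, so nothing is read from this count.

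The neighbour with the highest level was MXLOC_011839, an assembled mRNA locus that overlaps LXLOC_017646 on the opposite strand. It had 0.38, 0.39 and 0.67 FPKM on day 7, 160, 138 and 256 FPKM on day 22, and 239, 251 and 365 FPKM on day 37. The late libraries were all far above day 7, and the late days overlapped. The fitted difference between day 22 and day 7 was 6.93 on the log2(FPKM + 1) scale, and the later difference was 0.65 ± 0.44 (SE, limma adjusted p 0.258), which did not pass. LXLOC_017646 had 105, 125 and 212 FPKM on day 22 and 203, 208 and 281 FPKM on day 37, below MXLOC_011839 in every late library. The part of reads counted for both strands was not tested.

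MXLOC_023188, which lies 5663 bases from LXLOC_023189, had 0.303 ± 0.0551 FPKM on day 7, and its later levels were 13.3 ± 3.70 FPKM and 18.3 ± 3.58 FPKM (SD, n = 3). Its fitted difference between day 22 and day 7 was 3.42 on the log2 scale. MXLOC_035961, which lies 6611 bases from LXLOC_042302, had 0.0200, 1.88 ± 0.575 and 2.39 ± 0.541 FPKM on the 3 days. Its fitted difference between day 22 and day 7 was 1.48 as deposited, 4.01 with a pseudocount of 0.1 and 0.56 with quantile normalization. Both neighbours were assembled loci with levels well below those of the late locus beside them, which the rule chose as high.

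LXLOC_003006 had 2 mRNA-table neighbours, MXLOC_003007 and LOC110871737, which begin at the same distance from it and may share reads. MXLOC_003007 had 0.51, 0.85 and 0.84 FPKM on day 7. Its day 22 values were 0.79, 1.06 and 1.23 FPKM, and its day 37 values were 2.43, 1.72 and 1.07 FPKM. Each day 37 library was above each day 7 library. The fitted difference between day 37 and day 7, given as a description, was 0.64 on the log2 scale as deposited. It was 1.10 with a pseudocount of 0.1, 1.23 with median-of-ratios scaling and 1.04 with scaling on the 453 mRNA genes. With trimmed mean scaling it was 0.43, and with quantile normalization 0.27. LOC110871737, which lies 1124 bases away, had 27.8 ± 0.461 FPKM on day 7. It had 19.6, 14.7 and 8.69 FPKM on day 22 and 23.4, 15.0 and 3.21 FPKM on day 37. It was thus lowest in replicate 3 on both late days, where LXLOC_003006 was highest. Replicate 3 was below replicate 1 on both late days in 25 of the 36 annotated genes that met the thresholds, and above in 6. It was above in 61 of the 62 late loci and in 79.6% of the other LXLOC loci above 0 in every late library. Nothing is therefore read from the opposite orders of this pair. Between day 7 and day 37 the log2 level of LOC110871737 fell by 1.29 ± 0.57 (SE, limma adjusted p 0.0481, and 0.00287 with the replicate block). Without the block the call was lost when any 1 library of day 7 or day 22 was left out. The difference was -0.54 without replicate 3 of day 37, -0.26 with median-of-ratios scaling and 0.07, of the opposite sign, with quantile normalization, and was called under none of these.

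**Figure D5:**
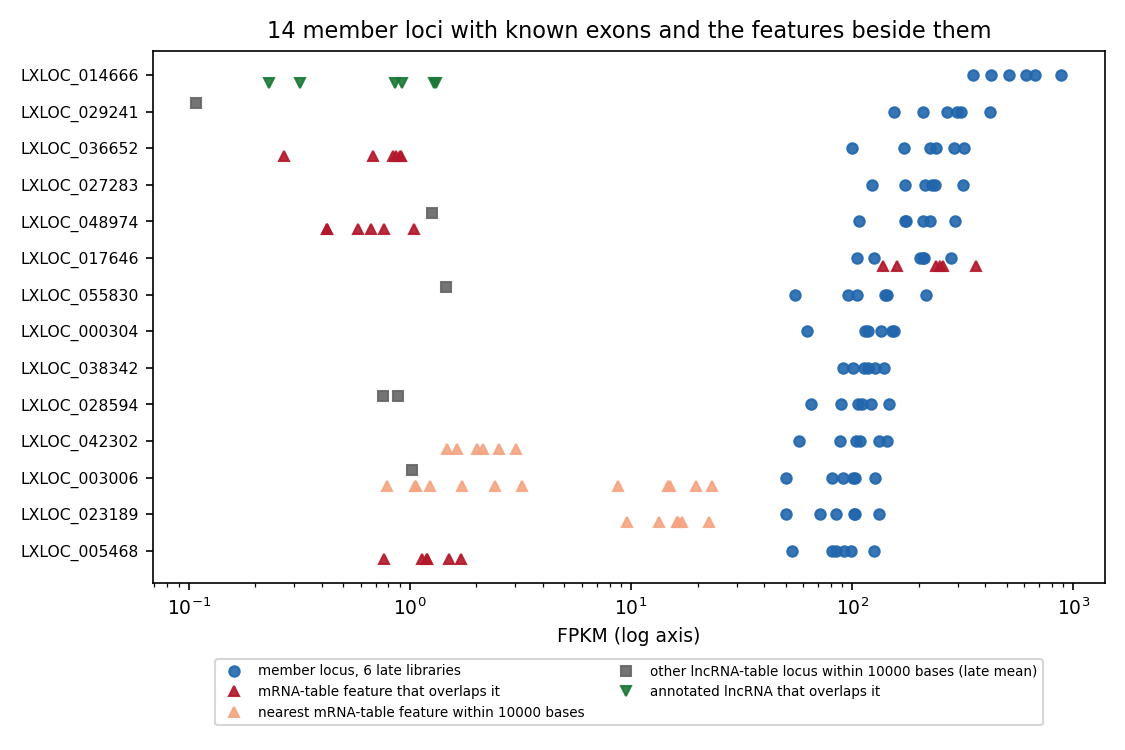
FPKM in the 6 late libraries, on a log axis, of the 14 late loci with exons in the assembly file (circles) and of the mRNA-table features and the annotated lncRNA beside or opposite them (triangles), with the late mean of other lncRNA-table loci within 10000 bases (squares). The late loci lie at 50 FPKM or more, and each feature beside them other than MXLOC_011839 lies to their left, at no more than 23.4 FPKM in any library.

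In the lncRNA table, 6 LXLOC loci lay within 10000 bases of 5 late loci, and their late means ran from 0.108 to 1.46 FPKM, with no library above 2.91 FPKM. LXLOC_055831 overlapped the span of LXLOC_055830 on the same strand and had the highest of these means, and LXLOC_028595 lay 214 bases from LXLOC_028594 with a late mean of 0.753 FPKM. On day 7 none of these 6 LXLOC loci was above 0.24 FPKM in any library. The 5 late loci were chosen for a high late level. Other LXLOC loci had late library medians of only 0.62 to 1.53 FPKM, so nothing is read from the gap.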

How the data were processed

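Libraries of sunflower seed RNA, from which ribosomal RNA had been removed, were sequenced on a BGI500, per the labels' protocols. The submitters' processing notes list RSEM 1.2.12, HISAT2 2.0.4, DESeq2 1.4.5 and Bowtie2 2.2.5 with no role, and no source used here names a genome build. Gene levels were deposited as FPKM for mRNA and for lncRNA, with 1 column per library. Exon positions came from the authors' assembly file, whose second column names Cufflinks, and from the deposited circRNA signal only the positions of the circles were used. The lncRNA and mRNA tables each end at 65535 features and may be parts of longer tables.

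Values were analysed as log2(FPKM + 1) in 1 fit of all 9 libraries per table, kept to features that reached 1 FPKM in 3 or more libraries. The tool was limma 3.58.1 (R 4.3.3) with robust, trended empirical Bayes moderation. Adjusted p-values are Benjamini-Hochberg over all features tested in a table. The fits were also run on simulated data. The differences planted there were larger than any of the late loci between day 22 and day 37, and no shift was shared by a library. That run therefore does not bear on the calls of the late loci. Other steps used Python 3.11.15, numpy 2.4.6, pandas 2.3.3 and matplotlib 3.10.9. Scaling totals were derived from the size of 1 fragment in single-exon intergenic loci of 200 to 500 bases, a step added after the values were seen. An assembled locus of a table was matched to the assembly file by its number. Gene symbols came from the gene table of HanXRQr2.0-SUNRISE, whose coordinates were not used.

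The members and lists were chosen with earlier results of these data known. Named loci were the 5 with the highest late mean, the 5 most positive and 5 most negative differences between day 37 and day 22, the 5 on each side of each threshold, those with exons in the assembly file and their neighbours, and the leading features of the other classes at the same thresholds. Single loci that stood out after their values were seen, such as LXLOC_160922, LXLOC_164558 and LXLOC_167598, were added. Alternatives changed the pseudocount, the filter, the scaling, the libraries used and the replicate block.

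The labels do not say that equal replicate numbers pair libraries. In the mRNA table the deviations of same-numbered libraries of day 22 and day 37 from their day's mean correlated at 0.767, 0.149 and 0.781 for replicates 1 to 3. Between day 7 and the late days these correlations lay between -0.063 and 0.064. Libraries with unlike numbers were not compared. Replicates 1 and 3 of the late days also differ over whole libraries, so these values do not establish that the numbers pair libraries. In the lncRNA table the correlations were 0.515, 0.0926 and 0.548. The blocked values are therefore given beside the lncRNA results only as an alternative. The fit without the block is the one reported.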

Additional observations from a re-analysis of the deposited data

How the results depend on the processing

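As deposited, 813 lncRNA features were called between day 22 and day 37. The count was 1414 with a pseudocount of 0.1, 357 with quantile normalization, 226 with trimmed mean scaling, 500 with scaling by the median of ratios, 104 after scaling on 453 mRNA genes, 870 with a replicate block, 793 without both late libraries numbered 3, and 526 to 1147 when 1 library was left out. Of the late loci, 0 to 6 were called when 1 library was left out and 0 under the other alternatives. The replicate block changed no call of a late locus or neighbour. Leaving out 1 library gave a median difference of the late loci of 0.27 to 0.74, and trimmed mean scaling gave 0.022. With that scaling the differences were -0.10 in LXLOC_215589, -0.25 in LXLOC_000304, -0.25 in LXLOC_038342, -0.24 in LXLOC_090065, -0.22 in LXLOC_065923, -0.047 in LXLOC_028594, -0.051 in LXLOC_042302, -0.075 in LXLOC_005468, -0.10 in LXLOC_108205, -0.17 in LXLOC_066524, -0.015 in LXLOC_181293 and -0.024 in ID110933078, each positive as deposited. Leaving out 1 library gave -0.18 to 0.46 in LXLOC_000304, -0.066 to 0.24 in ID110933078 and -0.84 to 0.43 in LOC110871737, the lowest in the first pair without replicate 1 of day 22. With quantile normalization the mRNA-table neighbours had 2 calls at day 22 and 3 at day 37, each against day 7 (6 at day 37 with scaling by the median of ratios), and 3 to 4 and 4 to 5 when 1 library was left out. For LOC110871737 the difference between day 37 and day 22 was 0.32 with median-of-ratios scaling, 0.14 with quantile normalization, 0.43 without replicate 3 of day 37 and 0.13 without both late libraries numbered 3, against -0.31 as deposited. With quantile normalization its difference between day 37 and day 7 was 0.067, and that of MXLOC_003007 between day 22 and day 7 was -0.57. The cause was not tested. Leaving out both late libraries numbered 3 was chosen after seeing the data. With 3 libraries a day, a log2 difference of 1 lay inside most intervals of the late loci in the fit without the block.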
